A study of Sus scrofa with 12 samples.

Results

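The circRNA table listed 404 circular RNAs that the authors classed as intronic, and the 394 of them that lie off chromosomes X and Y are described here; 10 were on chromosome X and 0 on Y. They are 394 of 24177 circRNAs in the table and come from 282 host genes, of which 257 had a symbol and 278 were found in the gene table. The class was taken as the authors assigned it, and no measured level entered that rule. The class was chosen with earlier results of these data known. The libraries were made from pig liver after 15 days of housing at 23 ± 2 °C (room temperature) or at -15 ± 2 °C (cold), in the Bama and the Hezuo breed, with 3 pigs in each of the 4 groups, called Bama RT, Bama cold, Hezuo RT and Hezuo cold from here on. Age and sex were not given in the labels. The stated purpose was to find RNAs tied to cold resistance in the Hezuo breed, with the room-temperature pigs of each breed as controls.

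A circular RNA is recognised by a read that joins the end of a stretch of RNA back to its own start, called a back-splice read. Most circRNAs are made of exons, but an excised intron can also persist as a circle: splicing releases the intron as a lariat, the enzyme DBR1 normally opens the lariat at its branch point so that the intron is degraded, and a lariat that escapes this step can remain as an intronic circle. Intronic circles have been described mostly in the nucleus, where some act on transcription of their host gene.

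The members held 3632 back-splice reads over the 12 libraries, 0.580% of all back-splice reads in the table. The median member had 3 reads, 157 members had only 2, and 255 were seen in 1 library. At the other end, 13 members had reads in all 12 libraries and together held 1530 reads, 42.1% of the reads of the class, and the 10 most abundant held 38.6%. Intronic circles were thus seen in a single library more often than exonic ones, in 64.7% against 18.7% of circles, though a circle with few reads can only be seen in few libraries, and the median exonic circle had 8 reads. Of the 62 members with at least 10 reads, 61 were found in both breeds and 61 at both temperatures; the exceptions were a circle of PTK2, without reads in Hezuo, and a circle of GLCCI1, novel_circ_017443, with 7 reads in Bama and 10 in Hezuo RT and 0 in the cold. The largest count that came from 1 library was 8 reads, for a TCF7L2 circle in the first Bama RT pig.

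Members spanned 129 to 80580 bases with a median of 900.5, against 9558 bases for exonic circles, 364 for circles within a single exon and 620.5 for antisense circles. The deposited spliced length equalled the genomic span in 394 of 394, so the table treats each as unspliced. The members found in all 12 libraries were longer, with a median span of 4061 bases, than those found in 1 library, with 639. The 101 members between 1000 and 5000 bases held 1723 reads in sum. The 129 members of up to 500 bases held 615, the 75 between 500 and 1000 bases 315 and the 89 longer than 5000 bases 979. The median member had 3 reads in each range up to 5000 bases and 6 above it. The larger sum is thus not that of a typical circle: the DNAJC25 circle with 361 reads and the RIN3 circle with 257 fall in that range.

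**Figure D1:**
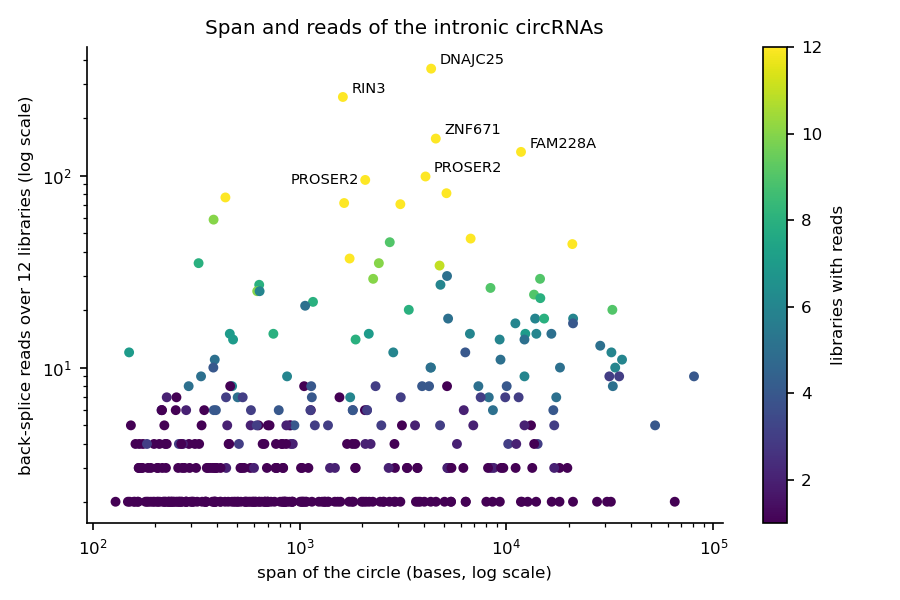
Span in bases against back-splice reads summed over the 12 libraries for the 394 intronic circRNAs, both on log axes; each point is 1 circle and the colour gives the number of libraries with reads. The lowest row holds the 157 circles with 2 reads, while the DNAJC25, RIN3, ZNF671 and FAM228A circles stand above 100 reads at spans of 1619 to 11753 bases.

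Libraries held 20041285 to 30188037 gene counts and 39117 to 75616 back-splice reads, with 198 to 460 reads on 61 to 106 intronic circles per library. DDX3Y, a Y-linked RNA, was at 0 to 3 counts in the 3 Bama RT libraries and the second Bama cold library, and at 1331 to 3769 in the other 8, so breed at RT and the presence of Y-linked RNA cannot be told apart. Cold in Bama and breed averaged over temperatures are partly mixed with it as well. Y-linked RNA was used as a covariate for circRNAs only, not for genes. Summed hepatocyte markers (7 of 7 found, albumin and transthyretin among them) ranged from 94470 to 108700 CPM (counts per 1000000) in Bama RT, 24860 to 84160 in Bama cold, 128900 to 150000 in Hezuo RT and 52140 to 128200 in Hezuo cold.

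The most abundant intronic circle belonged to DNAJC25, a membrane protein of the DnaJ co-chaperone family. It is novel_circ_014697, 4324 bases at chr1:252431131-252435454 on the plus strand; all coordinates are those of the deposited table, whose genome build is not given in the sources used here. It had 55, 35 and 50 reads in Bama RT, 19, 21 and 18 in Bama cold, 20, 42 and 35 in Hezuo RT, and 21, 22 and 23 in Hezuo cold. The 3 cold Bama libraries lay below the 3 at room temperature, whereas the Hezuo groups overlapped. In reads per 1000000 back-splice reads (RPM) this was 704 ± 90.1 (SD, n = 3) against 398 ± 80.8 in Bama and 684 ± 264 against 494 ± 53.5 in Hezuo. The log2 difference between cold and room temperature in Bama was -0.86 ± 0.39 (SE), which did not pass adjustment over all circRNAs (edgeR quasi-likelihood test, adjusted p = 0.745). Its host's linear RNA lay between 5.53 and 9.48 FPKM and differed by -0.13 ± 0.14 on the log2 scale in the same comparison (edgeR adjusted p = 0.704). DNAJC25 had 0 exonic circles in the table.

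RIN3, an activator of Rab GTPases in endocytosis, gave the next most abundant circle, novel_circ_023195 at chr7:114247352-114248970 on the plus strand. Its reads were 29, 24 and 40 in Bama RT, 21, 20 and 1 in Bama cold, 21, 19 and 31 in Hezuo RT, and 8, 23 and 20 in Hezuo cold. A single library, the third Bama cold pig, stood far below the other 11. Linear RIN3 in that library was 9.30 FPKM, within the range of 5.58 to 10.96 over the other libraries. The log2 difference for cold in Bama was -0.68 ± 0.44 (edgeR adjusted p = 0.882).

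The ZNF671 circle novel_circ_009465, from a gene of the zinc finger family, spanned chr6:62642810-62647361. It had 15, 11 and 38 reads in Bama RT, 9, 7 and 9 in Bama cold, 12, 4 and 14 in Hezuo RT and 9, 7 and 21 in Hezuo cold. The groups overlapped in Hezuo, and in Bama they were separated by counts (11 or more against 9 or fewer) but not after scaling for depth. ZNF671 carried 6 intronic circles with 277 reads and 0 exonic ones, and 2 further members of it, novel_circ_018483 with 47 reads and novel_circ_018849 with 37, were also found in all 12 libraries.

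FAM228A gave novel_circ_001598, an 11753-base circle at chr3:114562189-114573941 on the minus strand, with 13, 6 and 8 reads in Bama RT, 6, 14 and 14 in Bama cold, 12, 13 and 24 in Hezuo RT and 6, 3 and 14 in Hezuo cold. All 12 libraries held it, although its host had only 80 counts in all 12 together and 0.01 to 0.45 FPKM. The 133 back-splice reads correspond to 1662 per 1000 host counts, against a median of 0.346 over members. At room temperature the Hezuo libraries lay above the Bama ones after scaling (log2 difference 1.25 ± 0.58, edgeR adjusted p = 0.579). This circle and novel_circ_012949 share their upstream end with a circle of FAM228A that holds exons.

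PROSER2, a gene named for its proline- and serine-rich protein, carried more intronic circles than any other host: 19 circles with 397 reads within 33.2 kb of chromosome 10, and 0 exonic circles. The circles found in every library numbered 3. The pair with the most reads, novel_circ_016642 (chr10:59832827-59836887) and novel_circ_021580 (chr10:59834812-59836887), start at the same base on the minus strand and end at different ones. The longer circle had 10, 14 and 5 reads in Bama RT, 5, 18 and 21 in Bama cold, 11, 1 and 2 in Hezuo RT and 5, 4 and 3 in Hezuo cold. The shorter had 4, 5 and 9, then 9, 8 and 5, then 4, 12 and 20, and then 8, 1 and 10 in the same order of groups. The longer form made up 64.6% of the pair's reads in Bama and 32.1% in Hezuo, but the shares of single pigs ran from 35.7% to 80.8% in Bama and from 7.69% to 80.0% in Hezuo and so overlapped widely. For the longer circle the cold Hezuo libraries lay below the cold Bama ones after scaling (log2 difference -1.67 ± 0.70, edgeR adjusted p = 0.538). The third, novel_circ_001866 (chr10:59851943-59853584), was the most even of the abundant members, with 3 to 8 reads in every library and group means of 109 to 124 RPM.

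The remaining members found in every library were those of MSRA, KIAA2026, SLC22A13 and MKRN1. MSRA, which repairs oxidised methionine, gave novel_circ_002223 with 81 reads, 1 to 15 per library. KIAA2026 gave novel_circ_013339, a 438-base circle with 77 reads, 1 to 14 per library; its 38 reads in Bama and 39 in Hezuo stand beside 171 and 56 reads on the 3 exonic circles of the gene. SLC22A13, an organic anion transporter, gave novel_circ_014740 with 71 reads, 1 to 11 per library, from a host with only 0.03 to 0.24 FPKM, or 710 reads per 1000 host counts. Its upstream end is also that of a circle the table assigns to another gene, EXOG, so its host is uncertain. MKRN1, a ubiquitin ligase, gave novel_circ_006186, a 20807-base circle with 44 reads, 1 to 10 per library. For these 4 circles none of the comparisons passed the test.

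**Figure D2:**
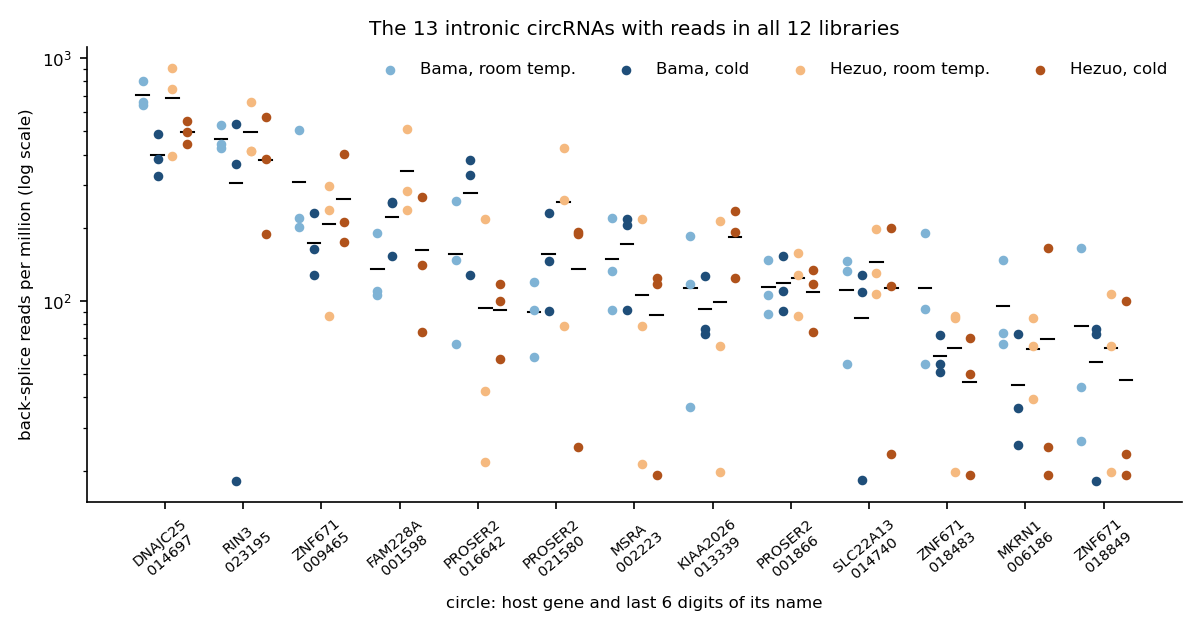
Back-splice RPM (log axis) for the 13 intronic circRNAs with reads in all 12 libraries; each point is 1 library, coloured by group, and the black bar is the mean of the 3 libraries of a group. The DNAJC25 circle lies highest, with the Bama cold points below the Bama room-temperature points, and 1 Bama cold point of RIN3 lies far below the rest.

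Most hosts gave a single member, and a few gave several. Of the 282 hosts, 238 had 1 intronic circle and 13 had at least 4, which together held 85 members: after PROSER2 came MKRN1 and KIZ (a centrosomal protein) with 8 each, and RIN3, ZNF671, SLC22A13 and an unnamed gene on chromosome 8 (ENSSSCG00000028901) with 6 each. Of the members, 96 share at least 1 end with another member: 52 share the upstream end and 66 the downstream end. Such circles share sequence and are not independent of each other. At RIN3, 3 circles start at base 114247352 and end 1619, 2416 and 5221 bases on, with 257, 35 and 18 reads. At MKRN1, 5 circles start at base 9400686 and span 8368 to 33526 bases, with 10 to 44 reads each, and the most abundant of these is not the shortest. At ZNF671, 4 circles start at base 62633610 and 3 end at base 62647361.

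At some of these loci the end of 1 circle lay just inside the start of the next. For 45 members with 986 reads, in 11 hosts, a member's downstream end fell 20 to 500 bases past the upstream end of another member further along the transcript. These overlaps marked 19 short segments of 35 to 409 bases, with a median of 120 and quartiles of 67 and 199.5. Applied to exonic circles, the same definition gave 2241 segments with a median of 139 bases and quartiles of 111 and 178. It took in 30.9% of exonic, 17.8% of antisense and 14.4% of intergenic circles, against 11.4% of intronic ones. At PROSER2 15 of the 19 circles met at 3 segments of 140, 270 and 195 bases. The segment of 195 bases (chr10:59853390-59853584) was the start of 5 circles and the end of 2 others. At RIN3 the 1619-base circle ended at the end of a 220-base segment, at ZNF671 the most abundant circle began at a 155-base segment, at KIZ 5 of 8 circles met at segments of 57 and 298 bases, and at SLC22A13 there was 1 of 115 bases. Gene models and sequence were not used here, and whether these segments are exons missing from the annotation was not tested.

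**Figure D3:**
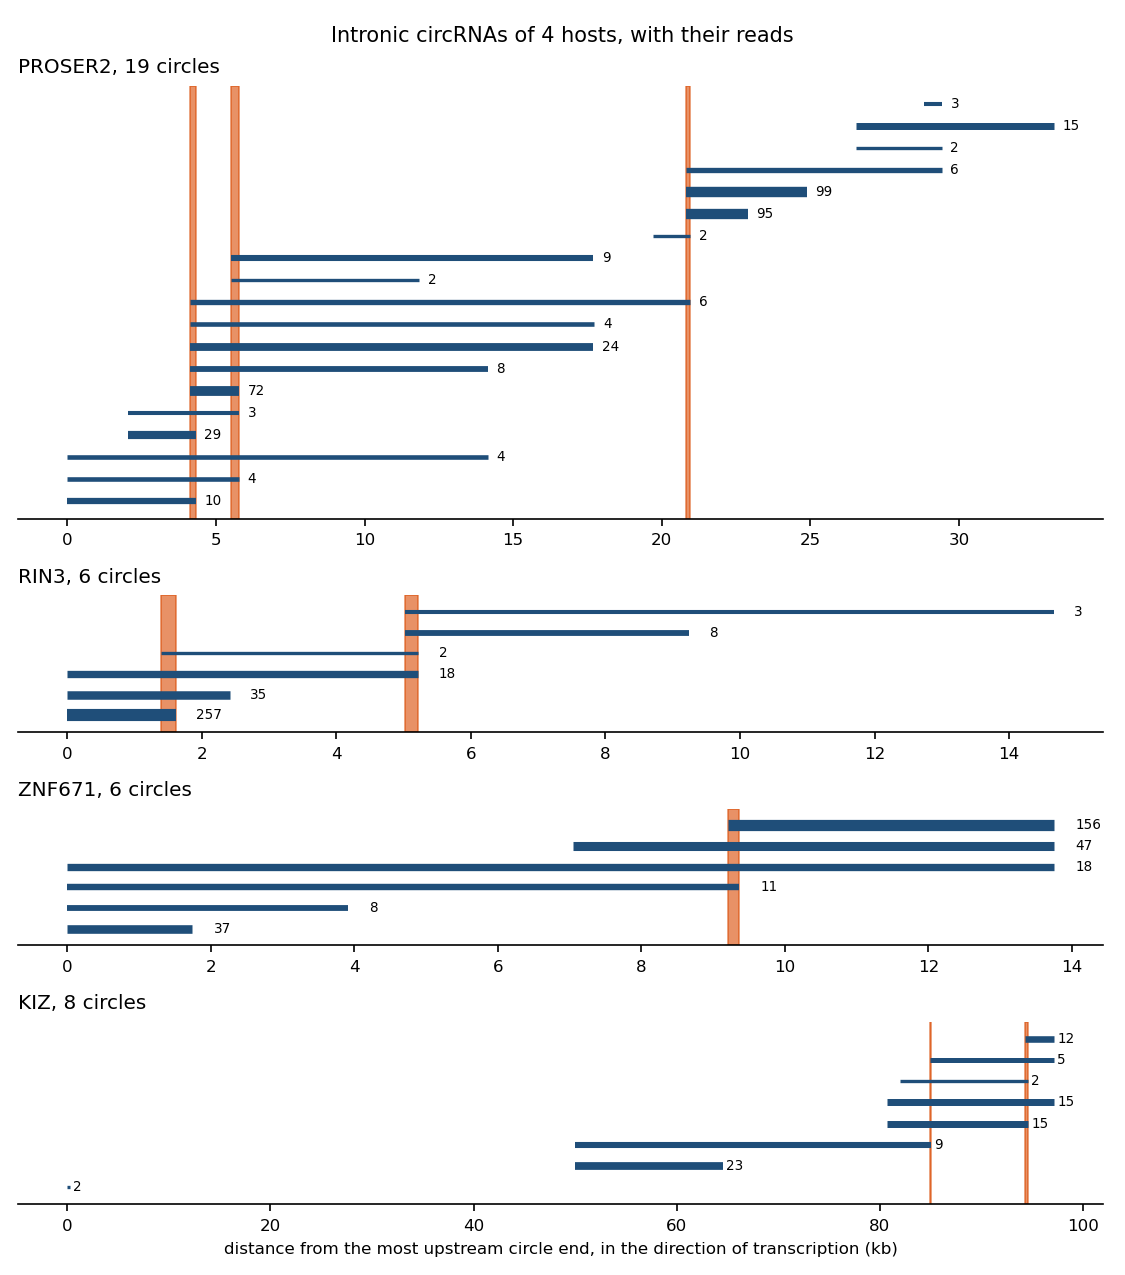
Maps of the intronic circRNAs of PROSER2, RIN3, ZNF671 and KIZ, drawn to scale in kb along the direction of transcription; each bar is 1 circle, thicker with more reads, and the number beside it gives its reads over the 12 libraries. Orange bands mark the short segments where 1 circle ends just past the start of another: 3 at PROSER2, 2 at RIN3, 1 at ZNF671 and 2 at KIZ.

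Circles with exons shared few ends with the members. Only 16 of 394 shared an end with a circle that holds exons, 13 at the upstream and 3 at the downstream end, among them the members of FAM228A, MSRA, AFDN and PTK2. An intron lariat starts directly after an exon, and 2 members, in SERPINC1 and BAZ1A, started directly after the end of an exonic circle; 0 ended directly before the start of one. This could be checked only at exon borders that exonic circles use. Exonic circles were listed for 180 of the 282 hosts, which held 231 members, and all 231 were on the strand of those exonic circles. Antisense circles form a class of their own in the table, so this match may follow from how the classes were defined. A member lay inside an exonic circle of its own host in 45 cases, and 121 hosts had more intronic than exonic back-splice reads.

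Mean levels of the host genes ran from 0 to 6260 FPKM with a median of 8.61, against 7.31 for hosts of exonic circles and 3.13 for all genes above 0. The 19 hosts above 100 FPKM included well-known liver products, among them C3 and C1R of the complement system, SERPINC1 (antithrombin), CPS1 of the urea cycle, SELENOP, ALDH1A1, FBP1 of gluconeogenesis, TDO2 of tryptophan breakdown and CYP3A39, a drug-metabolising cytochrome. These 19 gave 28 members with 177 reads, whereas 38 hosts below 1 FPKM gave 57 members with 532 reads. Of those 532 reads, FAM228A held 179, SLC22A13 126 and LYRM7 55, so the sum rests largely on a few hosts. For the most abundant SLC22A13 circle the host is uncertain, as given above. CYP3A39 at 2547 FPKM had 14 intronic reads, or 0.00796 per 1000 host counts, and C3 had 2. A total of 18 members came from hosts listed at 0 counts, and with the circles of FAM228A and PRSS16 a total of 20 had more reads than their host had counts.

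The share of back-splice reads on intronic circles was compared between groups to ask whether the class as a whole moves with cold or breed. It was 0.582 ± 0.0234% (SD, n = 3) in Bama RT, 0.554 ± 0.0203% in Bama cold, 0.591 ± 0.0747% in Hezuo RT and 0.590 ± 0.110% in Hezuo cold. Single libraries ranged from 0.465% (95% Wilson interval 0.405 to 0.534%), in the first Hezuo cold pig, to 0.671% (0.604 to 0.744%) in the third of that same group. These intervals cover counting error only, and they do not overlap although the pigs were treated alike. The difference between cold and room temperature was -0.000958 percentage points in Hezuo (exact permutation test, two-sided, p = 1) and -0.0281 in Bama (p = 0.3, exact permutation test), where the smallest p this design allows is 0.1. Hezuo differed from Bama by 0.0227 percentage points averaged over temperatures (p = 0.555, exact permutation within temperature, smallest possible p 0.005). Over both breeds, cold differed from room temperature by -0.0145 percentage points (exact permutation within breed, p = 0.595).

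Set against the linear RNA of the hosts, intronic circles had 157 ± 30.5 reads per 1000000 host counts in Bama RT, 142 ± 16.5 in Bama cold, 148 ± 32.7 in Hezuo RT and 154 ± 42.4 in Hezuo cold (SD, n = 3). The differences were -15.2 for cold in Bama (exact permutation p = 0.7), 6.09 for cold in Hezuo (exact permutation p = 0.9), -4.56 for cold over both breeds (exact permutation p = 0.805) and 1.37 for Hezuo against Bama (exact permutation p = 0.955). After adjustment over these 8 tests (Benjamini-Hochberg) each p was 1. The groups compared overlapped in each of these values.

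**Figure D4:**
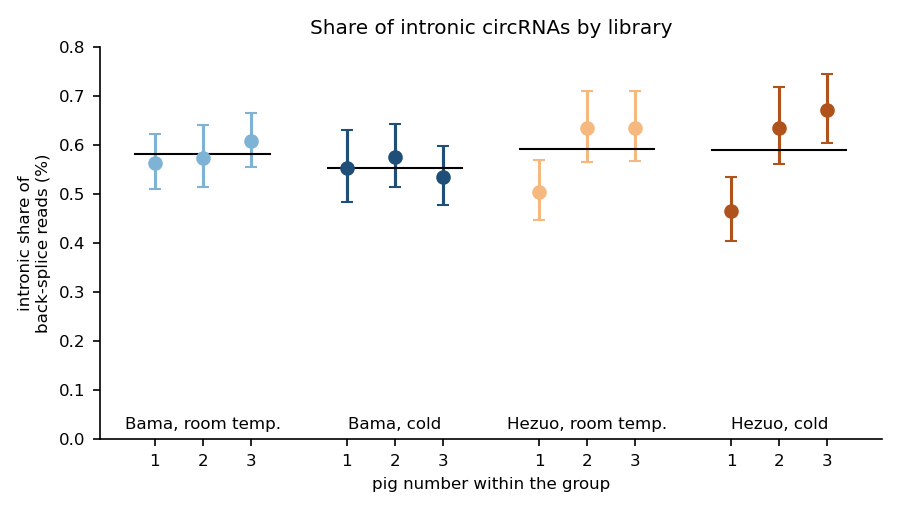
Percent of back-splice reads on intronic circRNAs in each library, with 95% Wilson intervals for counting error; the black bar is the mean of the 3 pigs of a group and the axis starts at 0. The 4 means lie between 0.554% and 0.591%, and the 2 Hezuo groups spread more widely than the Bama groups.

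Circle by circle, 57 members passed the filter for testing (at least 2 reads in 3 libraries and 10 in all), with 2438 reads; the other 337 were too sparse, and passing can depend on a single group. Among the 9032 circRNAs tested, edgeR called 0.0886% for cold in Hezuo, 0.155% for cold in Bama and 0.199% for cold over both breeds at an adjusted p below 0.05, and it called 0 of the 57 members in each. At an unadjusted p below 0.05 there were 3, 5 and 5 members, or 5.26%, 8.77% and 8.77% of them, beside 5.79%, 6.53% and 7.86% of all circRNAs tested. DESeq2 called 0 members in all 3. Groups without overlap after scaling were seen for 5 members in Hezuo (8.69% of all circRNAs tested) and 6 in Bama (10.4%), and in both breeds at once for 0 (0.698%), so members separated by cold about as often as other circRNAs. The difference between breeds in the response to cold was called in 0.0886% of circRNAs and in 0 members by edgeR and by DESeq2, with 6 members at an unadjusted p below 0.05 (5.67% of all).

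The members with the smallest p among those without overlap show how thin these counts were. In Bama, the PROSER2 circle novel_circ_017686 had 0, 0 and 0 reads at room temperature and 4, 1 and 6 in the cold (edgeR adjusted p = 0.652). FAM228A's novel_circ_009169 had 1 read in each of the 3 room-temperature Bama libraries and 4, 4 and 2 in the cold (edgeR adjusted p = 0.844). The circle of DEGS1, an enzyme of ceramide synthesis, went the other way with 2, 4 and 1 reads at room temperature and 0, 0 and 0 in the cold (edgeR adjusted p = 0.751). In all 3 the separation rests on 1 to 6 reads per library.

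In Hezuo, the LTN1 circle novel_circ_002218, from a ubiquitin ligase of ribosome quality control, had 3, 0 and 0 reads at room temperature and 3, 3 and 6 in the cold (edgeR adjusted p = 0.863). MKRN1's novel_circ_004131 had 0, 1 and 1 against 3, 4 and 4 (edgeR adjusted p = 0.863), but in Bama it had 1, 7 and 5 at room temperature and 0, 3 and 0 in the cold. The KIZ circle novel_circ_010144 had 2, 3 and 2 reads at room temperature and 0, 0 and 0 in the cold (edgeR adjusted p = 0.851). PDZK1, a scaffold for membrane transporters, gave novel_circ_011290 with 3, 3 and 5 against 2, 1 and 3 reads (edgeR adjusted p = 0.991). In each the separation rests on 0 to 6 reads per library.

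Breed gave the only called member. Averaged over temperatures, 1.28% of the circRNAs tested were called by edgeR, 0.509% of them lower in Hezuo, and 1 of the 57 members was called, the PTK2 circle novel_circ_016241, lower in Hezuo. DESeq2 called 0 members, and 9 members had an unadjusted p below 0.05, 15.8% of them beside 11.1% of all. Between breeds at 1 temperature, 0.454% of circRNAs were called at RT and 0.421% in the cold, with 0 members called by edgeR and by DESeq2 and 7 and 6 members at an unadjusted p below 0.05 (7.94% and 8.49% of all). Groups did not overlap for 9 members at room temperature (12.2% of all circRNAs tested), 5 in the cold (11% of all) and 1 at both temperatures (1.52%).

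PTK2 encodes focal adhesion kinase, which relays signals from integrins. Its intronic circle spans 641 bases at chr4:2678086-2678726 on the plus strand. It had 11, 5 and 4 reads in Bama RT, 2, 1 and 2 in Bama cold, and 0 in each of the 6 Hezuo libraries. All 6 Bama libraries held reads and the breeds did not overlap. The circle passed the filter for testing through its Bama reads alone, so it was selected through the breed where it is higher. Within Bama the RT pigs lay above the cold pigs, a difference that did not pass the test. Against a floor of 3 reads over the 278637 back-splice reads of the Hezuo libraries, the pooled Bama value, 25 reads in 347343, was 6.69-fold higher. This figure allows for counting error in the Hezuo zero only, not for the spread between pigs, and most of the 25 reads came from Bama RT. The fitted log2 difference of -4.71 ± 1.37 (edgeR, adjusted p = 0.0455) depends on the handling of zero counts and is no bound. The call was near the threshold: the adjusted p was 0.0775 with the pig number as a block, 0.0513 with DESeq2 size factors in edgeR and 0.132 without the filter. Leaving out single libraries gave adjusted p from 0.0454 to 0.122, below 0.05 only without the third Bama RT pig (0.0483) or the second in the cold (0.0454). With Y-linked RNA as a covariate the adjusted p was 0.525. The circle was present in Bama libraries with Y-linked RNA (2 and 2 reads) and without it (11, 5, 4 and 1 reads), and at room temperature breed and Y-linked RNA cannot be told apart.

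Other circles of PTK2 did not all follow this pattern. Linear PTK2 differed by 0.07 ± 0.10 on the log2 scale between breeds (edgeR adjusted p = 0.696). The 2 longer circles with exons start at the same base, 2678086: novel_circ_015729, of 9313 bases, had 8 reads in Bama and 15 in Hezuo, and novel_circ_012877 had 3 and 7. Of the reads on the 641-base and 9313-base forms together, the short form took 25 of 33 (75.8%) in Bama and 0 of 15 in Hezuo; 3 Hezuo libraries held neither form. In Bama the short form took 20 of 22 in the RT pigs and 5 of 11 in the cold pigs. The 12 exonic circles of the gene had 127 reads in Bama and 79 in Hezuo, or 366 and 284 RPM, and 1 of them, novel_circ_000238, had 0 reads in Bama and 10 in Hezuo, while another had 27 and 3; both were picked after their values were seen. The start of the intronic circle was thus in use in both breeds, while the end at base 2678726 was read only in Bama.

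**Figure D5:**
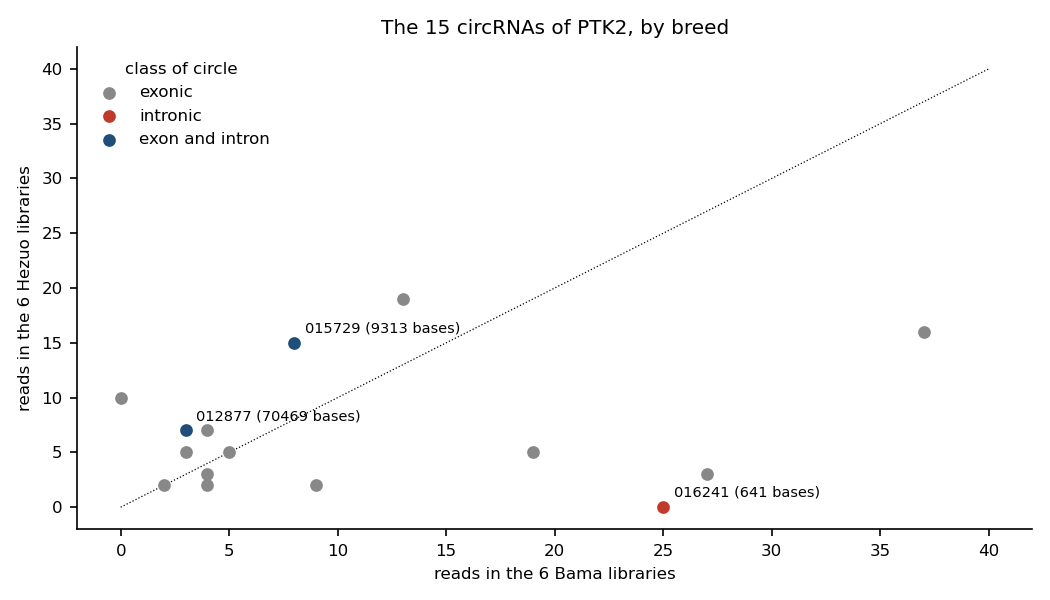
Reads of the 15 circRNAs of PTK2 summed over the 6 Bama libraries (horizontal axis) and the 6 Hezuo libraries (vertical axis), coloured by class; the dotted line marks equal counts and is not adjusted for the greater depth in Bama. The intronic circle lies at 25 and 0 reads, while the 2 circles that share its start, labelled with the last digits of their names and their spans, lie above the line.

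Further members whose libraries did not overlap between breeds included a pair in 1 gene. The unnamed gene ENSSSCG00000001341 on chromosome 7, at 127 FPKM, gave 2 circles, of 638 and 9266 bases, that share their downstream end at base 23022971 on the minus strand. The short circle novel_circ_015857 had 0, 0 and 0 reads in Bama RT, 3, 0 and 5 in Bama cold, 6, 1 and 2 in Hezuo RT and 2, 4 and 4 in Hezuo cold. The long circle novel_circ_016865 had 0, 2 and 2, then 2, 4 and 3 in Bama, and 0, 1 and 0, then 0, 0 and 0 in Hezuo. The short form made up 38.1% of the pair's 21 reads in Bama and 95% of 20 in Hezuo. Neither passed the test (edgeR adjusted p = 0.412 for the short circle at room temperature and 0.559 for the long circle in the cold). In Bama the short form had reads in the 2 cold libraries with Y-linked RNA and 0 in the 4 without. Those 4 were the Bama RT libraries and the second Bama cold one, so temperature and Y-linked RNA are mixed here. The fitted difference of the short form at room temperature changed sign with Y-linked RNA as a covariate. At RT breed and Y-linked RNA cannot be told apart, so that fit cannot decide the breed difference there.

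SLC22A13's novel_circ_015676 had 0, 0 and 0 reads in Bama RT and 4, 1 and 3 in Hezuo (edgeR adjusted p = 0.535), and 1, 0 and 0 against 0, 7 and 1 in the cold. Its host was at 0.35 ± 0.131 CPM in Bama and 0.321 ± 0.129 in Hezuo RT (SD, n = 3). ZNF671's novel_circ_016550, the longest circle of that gene, had 3, 8 and 2 reads in Bama and 0, 0 and 0 in Hezuo RT (edgeR adjusted p = 0.528), and 0, 0 and 3 against 1, 1 and 0 in the cold. DEGS1's circle, absent in cold Bama, had 2, 1 and 5 reads in cold Hezuo (edgeR adjusted p = 0.538). Each of these separated the breeds at 1 temperature and overlapped at the other.

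The linear RNA of the hosts was examined beside the circles. Among 13532 genes tested were 259 of the hosts. For cold over both breeds edgeR called 3.89% of genes (1.95% higher and 1.94% lower) and 12 hosts (4.63%), 1 higher and 11 lower. Called or not, 114 of the 259 hosts were higher in the cold and 145 lower, with 51.3% of all genes tested lower. No direction of the hosts as a whole is read from the 12 calls. IGFALS, which keeps insulin-like growth factors in the circulation, fell by 1.41 ± 0.15 on the log2 scale (edgeR adjusted p = 0.00216), RAD51B of DNA repair by 1.03 ± 0.18 (0.0154), the zinc finger gene BNC2 by 0.98 ± 0.24 (0.0459) and CYP3A39 by 0.90 ± 0.17 (0.0203). TENT2, a cytoplasmic poly(A) polymerase, rose by 0.41 ± 0.10 (edgeR adjusted p = 0.0420). The 12 hosts carried 1 to 3 intronic circles with 2 to 21 reads each. Hepatocyte markers were lower in the cold without overlap in either breed, as given above. Summed stellate cell markers (4 of 4 found) were at 547 to 1446 CPM in Bama RT and 220 to 372 in Bama cold, and at 420 to 775 in Hezuo RT and 240 to 400 in Hezuo cold. Summed macrophage markers (5 of 5 found) were at 424 to 723 CPM in Bama RT and 890 to 1626 in Bama cold, and at 343 to 594 in Hezuo RT and 558 to 1172 in Hezuo cold, where the groups overlapped. The part of these cell types in the changes was not tested.

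For cold in Bama edgeR called 0.924% of genes (0.384% higher and 0.539% lower) and 5 hosts: TDO2 rose by 1.24 ± 0.19 on the log2 scale (adjusted p = 0.0171), and IGFALS (2.03 ± 0.22), RAD51B (1.31 ± 0.25), HPS1 of lysosome-related organelles (0.77 ± 0.12) and FANCL, a ubiquitin ligase of DNA repair (0.67 ± 0.13), fell by the amounts given, with adjusted p of 0.00242 to 0.0428. IGFALS stood at 33.8, 37.2 and 27.6 FPKM at room temperature and 8.21, 7.32 and 11.2 in the cold in Bama, and at 66.4, 60.5 and 83.2 against 45.4, 46.4 and 34.9 in Hezuo, without overlap in either breed. For cold in Hezuo 0.281% of genes and 0 hosts were called by edgeR, with 49 hosts at an unadjusted p below 0.05 (15.6% of genes) and 10 hosts called by DESeq2 (3.99% of genes). The single IGFALS circle had 3 reads, all from 1 library, and that of TDO2 had 2, so nothing can be said of these circles beside their hosts.

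Between breeds, averaged over temperatures, edgeR called 12% of genes and 33 hosts, 16 higher and 17 lower in Hezuo, beside 6.1% and 5.87% of genes. At RT 7 hosts were called (1.08% of genes), and in the cold 8 (2.76% of genes). IGFALS, FANCL, GHR and KCNQ1 were called at both temperatures. Every one of these calls was higher in Hezuo, as were 0.672% and 1.8% of genes. The breed difference in the response to cold was called in 0.00739% of genes and 0 hosts by edgeR, with 29 hosts at an unadjusted p below 0.05 (8.02% of genes) and 2 hosts called by DESeq2 (1.03% of genes). The higher hosts were led by IGFALS (1.91 ± 0.15 on the log2 scale, edgeR adjusted p = 9.975e-05), the growth hormone receptor GHR (1.32 ± 0.17, 0.00278), the potassium channel KCNQ1 (1.03 ± 0.15, 0.00384) and DMGDH of choline breakdown (0.98 ± 0.17, 0.00686). The lower ones were led by the transcription factors RUNX2 (-1.31 ± 0.32, edgeR adjusted p = 0.0253) and ETV1 (-0.89 ± 0.17, 0.00922), the leukocyte phosphatase PTPRC (-0.87 ± 0.21, 0.0247) and the condensin subunit SMC4 (-0.78 ± 0.18, 0.0182). Summed T and NK cell markers (3 of 3 found) were at 42.6 to 100 CPM in Bama and 22.4 to 40.4 in Hezuo RT, and at 41.4 to 79.8 and 29.7 to 50.6 in the cold. Hepatocyte markers were higher in Hezuo RT than in Bama RT without overlap and overlapped between the breeds in the cold, as given above. The part of these cell types and of Y-linked RNA in the host differences was not tested. MKRN1 was the only called host with more than 3 members: its linear RNA was higher in Hezuo by 0.41 ± 0.10 (edgeR adjusted p = 0.0220), while its most abundant circle, novel_circ_006186, had 74.9 RPM over the Bama libraries and 64.6 over the Hezuo ones.

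Across the 55 tested members whose host was tested, from 30 hosts, Pearson's r between the log2 difference of the circle and that of its host was 0.26 for cold in Hezuo, 0.25 for cold in Bama, 0.10 for breed at room temperature and 0.41 for breed in the cold. The signs were the same for 27, 37, 29 and 38 of the 55. These points share libraries, members of 1 host share its value, and most circle values rest on few reads, so the figures are given as a description only.

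Genes that make and remove intron lariats were measured from 4 lists, and all of their genes were tested. For cold in either breed or over both, edgeR called 0 of the 6 lariat turnover genes, 0 of 9 of spliceosome disassembly, 0 of 15 of branch point recognition and 0 of 12 of the spliceosome core; over both breeds 1 gene of each list had an unadjusted p below 0.05, beside 23.5% of all genes tested. DBR1, the debranching enzyme, was at 1.25, 1.20 and 1.30 FPKM in Bama RT and 1.51, 1.52 and 1.5 in the cold, and at 0.93, 0.99 and 1 against 1.13, 1.16 and 1.24 in Hezuo. The cold libraries lay above those at room temperature in both breeds, as they did for 5.11% of all genes tested in 1 direction or the other, but the count test gave a log2 difference of 0.18 ± 0.09 (edgeR adjusted p = 0.225). Between breeds, averaged over temperatures, 1 of 6, 1 of 9, 0 of 15 and 1 of 12 were called, beside 12% of all genes tested. MPLKIP, a partner of DBR1, was higher in Hezuo by 0.54 ± 0.11 (edgeR adjusted p = 0.0132), the spliceosome helicase DHX16 by 0.39 and the spliceosome protein CRNKL1 by 0.36. The other genes of the 4 lists did not pass.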

How the data were processed

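Liver RNA of 12 pigs was depleted of ribosomal RNA and sequenced with strand kept, per the labels' protocols. The submitters' processing notes name fastp; for the aligner, the circRNA caller, the counter and the genome build, what was used is not given in the sources used here. The authors deposited back-splice counts and RPM (reads per 1000000 back-splice reads) per circRNA, and estimated counts and FPKM per gene; the RPM and FPKM values served as levels only. Members were the rows classed as intronic off chromosomes X and Y. Members and gene lists were chosen with earlier results of these data known. Counts of all circRNAs (at least 2 in 3 libraries and 10 in all) and of all genes (estimated counts rounded, filterByExpr) were fitted over 4 group means with edgeR 4.0.16 (TMM, robust quasi-likelihood, Benjamini-Hochberg over all features, threshold 0.05) in R 4.3.3; DESeq2 1.42.0 was an alternative. Single values were compared by exact permutation. Named members were those called, the 10 with the most reads, those in all 12 libraries and, per comparison, the 2 with the smallest p in each direction without overlap; named hosts were those with most members and up to 4 called per direction. The fits were tested on simulated data: of 200 features changed 4-fold for cold in Hezuo, 16.5% were recovered over 9032 circRNAs and 95.5% over 13532 genes. The changed features were drawn from the more abundant ones, and most tested members had fewer reads than the circRNAs drawn from. The simulated spread was set in advance and not fitted to these data. Pig numbers are shared between groups but name different animals, and deviations of same-numbered pigs correlated at -0.198 to 0.148 (genes) and -0.0268 to 0.0344 (circRNAs). Sequences were not used here, and 1 further gene list is not reported here.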

Additional observations from a re-analysis of the deposited data

How the results depend on the processing

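The called PTK2 circle between breeds was the only called member. With DESeq2 size factors, with DESeq2 and without the filter, the number of members called there became 0. It also became 0 with the replicate block on pig number and with Y-linked RNA as a covariate. With a filter of at least 5 counts in 3 libraries it was 0 as well. The PTK2 circle did not pass that filter, so this was no retest of it. The number of members called was 0 to 1 when single libraries were left out. For the other 6 comparisons of circles it was 0 to 0 when single libraries were left out. DESeq2 gave 10 called hosts for cold in Hezuo (3.99% of all genes), 19 for cold in Bama (5.04%) and 31 for cold over both breeds (11%). With edgeR and single libraries left out, the hosts called numbered 0 to 0, 1 to 5 and 4 to 13, and 17 to 40 for breed. The replicate block gave 3 hosts for cold in Bama and changed no other count of hosts by over 1.5 times; same-numbered pigs are different animals.

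The differences in intronic share for cold changed sign with the setting, and that for breed stayed positive. Without the DNAJC25 circle, the member with the most reads, they were 0.018 percentage points for cold in Hezuo, 0.0024 in Bama and 0.0102 over both. With the sum of intronic reads and the same hosts' exonic reads as the denominator they were 0.624, 0.282 and 0.453 percentage points. With only members of at least 10 counts they were -0.0566, -0.0509 and -0.0537 percentage points. Leaving out single libraries gave -0.0441 to 0.0616, -0.0386 to -0.0149 and -0.0361 to 0.0167, and for breed 0.0026 to 0.0540. For reads per 1000000 host counts signs changed as well: with all genes as the denominator the difference was -0.831 for cold in Hezuo and -1.28 for breed, with members of at least 10 counts -9.49 for cold in Hezuo, and without the DNAJC25 circle 2.06 for cold over both breeds. Leaving out single libraries gave -18.2 to 22.0 for cold in Hezuo, -28.7 to 1.36 in Bama, -16.7 to 3.72 over both and -10.8 to 9.71 for breed. The ENSSSCG00000001341 circle novel_circ_015857 went to -0.48 for breed at room temperature with Y-linked RNA as a covariate. The cause was not tested in any of these. Low counts limit single circles: 337 members were not testable. The simulated recovery of 4-fold changes was 16.5%, for circRNAs with more reads than most tested members.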
